A study of Bos taurus with 147 samples.

Results

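The 3 secreted or membrane-bound growth regulators of bovine *longissimus* muscle described here are DLK1 (Entrez gene 281117), IGFBP4 (282262) and IGFBP5 (404185). They are 3 of the 976 genes named by a single symbol on a bovine muscle and fat cDNA array, which held 17654 features in all once the elements of each named gene were averaged. DLK1 was read by 2 cDNA probes, IGFBP4 by 1 and IGFBP5 by 8. Each probe was printed in duplicate, so that the genes rest on 4, 2 and 16 array elements. All 3 genes had a value on every array used. They were picked by name, as known regulators of muscle and fat growth, in view of earlier results of the same arrays.

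The fetal arrays compared *longissimus* muscle of Piedmontese × Hereford (PH) and Wagyu × Hereford (WH) fetuses at d 60, d 135 and d 195 of gestation, together with that of newborn calves. Every array set 1 RNA against another in a closed loop of 25 two-colour hybridizations. The links between neighbouring stages carried 3 or 4 arrays in each sire breed, and 3 arrays set the breeds against each other at d 60 and again at birth. Another loop of 20 arrays compared muscle of the same crosses at sampling times named T1, T2 and T3, whose ages the labels do not give. At each of these times 4 arrays set PH against WH, 2 with either dye order, and each step between times was hybridized on 2 arrays in each breed.

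In the fetal set all Piedmontese sires were homozygous for a missense mutation of *GDF8*, the gene of the muscle growth inhibitor myostatin. The Wagyu sires of that set did not carry it and every dam was Hereford, so its calves of both breeds carry a Hereford genome from the mother. For the T1 to T3 animals the labels give the cross but not the sires or their *GDF8* status. The fetal groups held 3 animals each, and a single bull of each breed sired all d 60 fetuses, so that sire and breed cannot be told apart at that stage. One bull also sired all WH fetuses of d 135, and another all PH fetuses of d 195, a pair of which were twins. Breed differences at these stages therefore carry the same limit. At d 135 every WH fetus was also older than every PH fetus, so that age and breed cannot be told apart there. All newborn calves were female, whereas both sexes were among the fetuses, and sex was not tested. The d 60 tissue was the area that later forms the *longissimus*, from which skin was hard to remove, and RNA was linearly amplified before labelling. The labels tie no array number to an animal, and p-values therefore measure the spread between arrays, part of which may be technical.

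DLK1 (delta-like non-canonical Notch ligand 1, also known as Pref-1) is a transmembrane protein with epidermal growth factor repeats. It lacks the domain by which the usual Notch ligands engage their receptors, is shed as a soluble form that holds back fat cell differentiation, and is paternally expressed from the imprinted region in which the muscling mutation callipyge of sheep lies. IGF-binding proteins bind insulin-like growth factors outside the cell and set how much of them reaches the receptor. IGFBP4 is mainly an inhibitor and is cleaved by the protease PAPPA, whereas IGFBP5, abundant in muscle and bone, also attaches to the extracellular matrix and is made by myoblasts as they differentiate.

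Values are log2 ratios of one group over another, with each array centred on its median, so that 0 means the same standing relative to the other features. A gene passed when its adjusted p from limma, corrected over all features by Benjamini-Hochberg, was under 0.05. The fetal arrays had 19404 to 20771 usable elements of 21168 and the T1 to T3 arrays 20794 to 20946, and the residual SD around the fitted loop was 1.04 for DLK1, 0.38 for IGFBP4 and 0.40 for IGFBP5 in the fetal set. The spread of DLK1 was higher than that of 96.9% of the features tested, while the other genes stood near the middle, at 46.7% and 51.6%. On the T1 to T3 arrays the residual SD was 0.48, 0.19 and 0.23. The direction of the ratios was read from the dye labels and from the drawn loop of the methods, and is likely but not stated for the deposited values. Were it the reverse, every sign given here would turn and the sizes would stay.

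All 3 genes were lower at birth than at d 195. In the mean of both sire breeds DLK1 fell by 2.72 on the log2 scale (SE 0.39), to a level 6.58-fold lower, with an adjusted p of 6.80e-06. IGFBP5 fell by 1.38 (SE 0.16, 2.60-fold, adjusted p = 4.29e-07) and IGFBP4 by 1.19 (SE 0.15, 2.29-fold, adjusted p = 1.52e-06). This step was the most changeable of the time course on the whole array, with 52.5% of features passing in either direction and 25.8% passing as lower, and a lower call alone is therefore common. By size DLK1 ranked 4th from the lowest of 975 named genes, with IGFBP5 43rd and IGFBP4 57th.

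For DLK1 the birth over d 195 values of the PH arrays were -0.87, -2.27 and -5.18, and those of the WH arrays were -4.32, -1.50 and -2.16. All 6 arrays were below 0, but they spread over more than 4 log2 units, and the breeds overlapped. In the earlier links the PH arrays from d 60 to d 135 were all above 0 and each other set lay on both sides. At d 135 over d 60 the PH arrays read 0.14, 0.28 and 0.64 and the WH arrays 0.81, 0.82 and -0.42. At d 195 over d 135 the PH arrays read -0.20, 0.47 and -0.17, and the WH arrays read 0.36, -0.22, 0.79 and -0.50. DLK1 thus had no step past the threshold before d 195, with a mean of 0.38 (SE 0.39, adjusted p = 0.494) from d 60 to d 135 and 0.07 (SE 0.37, adjusted p = 0.915) from d 135 to d 195, in comparisons in which 31% and 16.8% of features passed. The 95% interval of the later step ran from -0.69 to 0.83.

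IGFBP5 read -1.19, -0.97 and -2.29 at birth over d 195 on the PH arrays and -0.86, -1.26 and -1.69 on the WH arrays. Every array was lower at birth, and the ranges of the breeds overlapped. From d 60 to d 135 its PH arrays read -0.23, -0.87 and -0.61 and its WH arrays -0.43, -0.63 and -0.37, again all below 0. The step from d 135 to d 195 was smaller, at -0.38, -0.42 and 0.05 in PH and -0.33, -0.30, -0.11 and -0.13 in WH, with a single array above 0. The matrix-binding protein IGFBP5 therefore fell in the first interval (-0.52, SE 0.16, adjusted p = 0.0168), did not pass in the second (-0.23, SE 0.15, adjusted p = 0.324), and fell most before birth. The first of these calls rested on few arrays. Without array 2 of the PH link between d 60 and d 135 it was -0.45 (adjusted p = 0.0767), and without array 2 of the same WH link it was -0.48 (adjusted p = 0.0579).

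IGFBP4, the inhibitory binding protein, read -0.55, -1.17 and -0.39 at d 135 over d 60 in PH and -0.53, -0.51 and -0.21 in WH. All 6 arrays were below 0. From d 135 to d 195 the PH arrays read -0.88, -1.30 and 0.29, whereas the WH arrays lay close to 0, at -0.17, 0.10, 0.05 and -0.28. At birth over d 195 the order of the breeds turned, with -0.45, -0.25 and -0.94 in PH and -1.71, -2.06 and -1.76 in WH. Here the WH arrays were all lower than the lowest PH array, with opposite dye orders in the 2 breeds. How many other features separate in this way was not counted. The limma test of this breed difference did not pass (adjusted p = 0.0799). The mean of both breeds fell by 0.56 from d 60 to d 135 (SE 0.15, adjusted p = 0.00781), and the -0.35 from d 135 to d 195 did not pass (SE 0.14, adjusted p = 0.102). The first call was lost without array 2 of the PH link between d 60 and d 135 (-0.44, adjusted p = 0.0557) and without all arrays numbered 1 (-0.57, adjusted p = 0.0819) or 2 (-0.42, adjusted p = 0.118). Leaving out array 3 of the next PH link brought the second step to -0.58 (adjusted p = 0.00334).

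**Figure D1:**
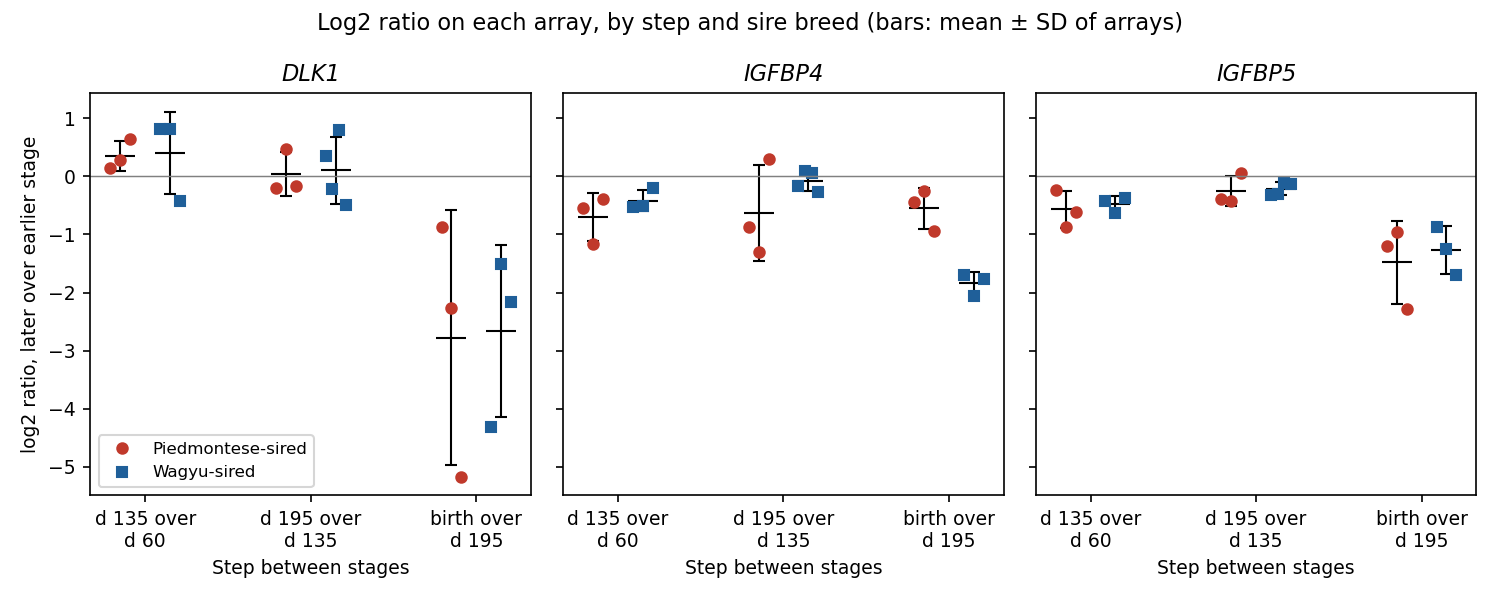
Log2 ratio of the later over the earlier stage on each fetal array (y axis, one point per array) for DLK1, IGFBP4 and IGFBP5, by link of the loop and sire breed (x axis), with bars for the mean ± SD of the arrays. At birth over d 195 all points lie below 0 in each gene, those of DLK1 from -0.87 to -5.18. The Piedmontese-sired and Wagyu-sired points of IGFBP4 do not overlap there, but the difference did not pass when tested.

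Over the whole interval from d 60 to birth DLK1 fell by 2.27 (SE 0.66, adjusted p = 0.00734), IGFBP4 fell by 2.10 (SE 0.26, adjusted p = 8.14e-07) and IGFBP5 by 2.13 (SE 0.27, adjusted p = 1.32e-06). In this comparison 25.6% of features passed as lower, and the genes ranked 43rd, 49th and 46th from the lowest of 975. No array joined d 60 to birth directly, so these values add 3 steps of the loop. The total for DLK1 was the least firm, and shrank to -1.24 when ratios at the ceiling of the deposited values were kept (adjusted p = 0.289) and to -1.23 when arrays were scaled to the same spread (adjusted p = 0.0543). In bulk muscle RNA, fewer cells that make a transcript and less transcript per cell cannot be told apart.

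The fitted levels, in log2 units around the mean of the 8 fetal groups, put the order of stages in numbers. DLK1 was highest in WH at d 195 (1.09, SE 0.43), followed by WH at d 135 (1.02) and d 60 (0.66), then PH at d 195 (0.53), d 135 (0.46) and d 60 (0.06), and last WH (-1.62) and PH (-2.20) at birth. No neighbours in that order differed at the threshold, the widest gap being 1.68 between PH at d 60 and WH at birth (adjusted p = 0.0867). IGFBP4 ran from 0.92 in WH and 0.87 in PH at d 60 to -1.15 in PH and -1.27 in WH at birth, with PH at d 195 at -0.55 and WH at d 195 at 0.52, a difference that did not pass (adjusted p = 0.9998). Its only neighbours that differed were PH at d 195 and PH at birth (0.59, adjusted p = 0.0240). IGFBP5 ran from 0.86 in PH and 0.85 in WH at d 60 to -1.04 in WH and -1.52 in PH at birth, and its only neighbours that differed were PH at d 195 and WH at birth (1.03, adjusted p = 0.00809).

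**Figure D2:**
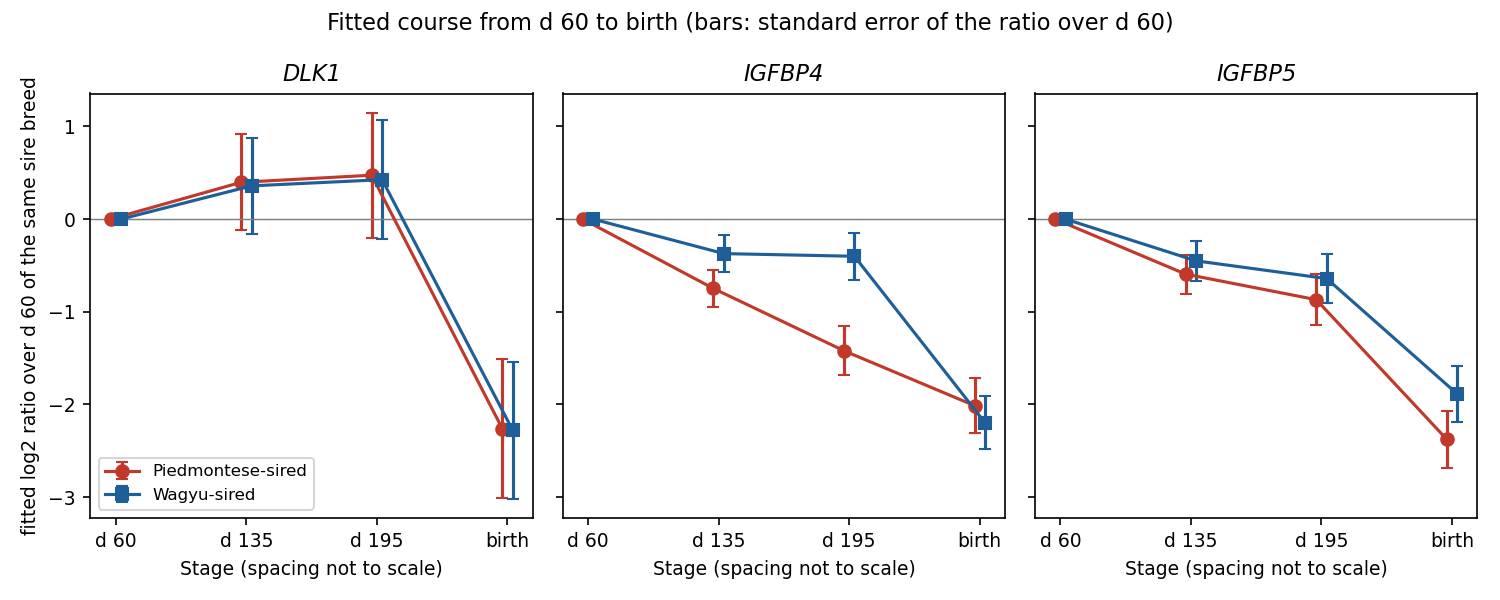
Fitted log2 ratio over d 60 of the same sire breed (y axis) for DLK1, IGFBP4 and IGFBP5 at each stage up to birth (x axis, spacing not to scale), in the Piedmontese-sired and Wagyu-sired groups, with bars for the standard error of that ratio. DLK1 reads 0.47 and 0.43 at d 195 and drops to -2.26 and -2.28 at birth, IGFBP4 declines to -1.42 in Piedmontese-sired but -0.40 in Wagyu-sired muscle by d 195, and IGFBP5 declines in both to -2.38 and -1.89 at birth.

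Within each sire breed the fall before birth passed for the mean of each gene's probes. DLK1 fell by 2.73 in PH (SE 0.52, adjusted p = 0.000278) and by 2.70 in WH (SE 0.52, adjusted p = 0.000245). IGFBP5 fell by 1.51 in PH (adjusted p = 1.00e-05) and by 1.25 in WH (adjusted p = 7.29e-05). IGFBP4 fell by 0.59 in PH (SE 0.20, adjusted p = 0.0240) and by 1.79 in WH (SE 0.20, adjusted p = 5.27e-07). As lower, 18.9% of all features passed in PH and 22.9% in WH. By probe 1 alone the DLK1 call was lost in PH (-1.62, adjusted p = 0.178) and in WH (-1.85, adjusted p = 0.109). The IGFBP4 call in PH was lost without array 3 of that link (-0.42, adjusted p = 0.201) or array 1 (-0.64, adjusted p = 0.0578), without centring (-0.59, adjusted p = 0.0631) and with scaled arrays (-0.34, adjusted p = 0.165).

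The difference between the breeds in this step was tested directly. For IGFBP4 the PH fall was smaller than the WH fall by 1.20 (SE 0.26, 95% interval 0.65 to 1.75), with an unadjusted p of 0.000176 but an adjusted p of 0.0799. No feature on the array passed that test (0%), and the difference is reported as not passing. The PH and WH links had opposite dye orders, so the difference also rests on the dye term of the loop. It came below the threshold without array 3 of the PH link between d 135 and d 195 (1.32, adjusted p = 0.0270), without array 1 of the breed link at birth (1.21, adjusted p = 0.0459) and without array 3 of the WH link between d 195 and birth (1.23, adjusted p = 0.0273). For DLK1 the same difference was -0.03 (SE 0.67, 95% interval -1.43 to 1.37) and for IGFBP5 it was -0.26 (SE 0.28, 95% interval -0.84 to 0.31). The wide interval of DLK1 leaves room for a breed difference of more than 1 log2 unit in either direction.

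Over the interval from d 60 to birth the PH change of IGFBP4 minus the WH change was 0.18 (95% interval -0.36 to 0.73). Up to d 195 it was -1.02 (SE 0.30, adjusted p = 0.135), which did not pass, in a comparison in which no feature did (0%). From d 60 to birth DLK1 differed by 0.02 (95% interval -1.38 to 1.42) and IGFBP5 by -0.49 (95% interval -1.07 to 0.09). None of the differences from d 60 to birth passed, in a comparison in which 13.2% of features did.

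The breeds met on the same arrays only at d 60 and at birth. At d 60 the PH over WH values of DLK1 were -1.60, -0.45 and 0.12, those of IGFBP4 0.28, -0.01 and -0.30, and those of IGFBP5 0.00, 0.14 and -0.03. The means lay near 0 for both binding proteins, whereas DLK1 leaned lower in PH with arrays on both sides of 0. At birth DLK1 read -0.88, -0.00 and -0.74, IGFBP4 0.06, 0.29 and -0.11, and IGFBP5 -0.01, -0.20 and -1.30. DLK1 and IGFBP5 were at or below 0 on all 3 arrays, each with a value next to 0. The fitted differences were -0.60 (SE 0.52) and -0.58 (SE 0.52) for DLK1 at d 60 and birth, with adjusted p values of 0.681 and 0.564. IGFBP5 differed by 0.01 at d 60 and by -0.48 at birth (SE 0.21, unadjusted p = 0.0352, adjusted p = 0.219), and IGFBP4 by -0.05 and 0.13. Few features passed at either stage, 0.048% at d 60 and 0.276% at birth. All arrays of a fetal link had the same dye order, which ran one way round the loop. Every PH time link held the earlier stage in Cy5 and every WH time link the later stage. Dye is therefore separated from breed, and from time within a breed, only through the closing of the loop. The fitted dye term was 0.04 for DLK1, -0.05 for IGFBP4 and -0.03 for IGFBP5.

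At d 135 and d 195 the breeds are joined by chains of arrays alone. IGFBP4 read -1.07 in PH over WH at d 195 (SE 0.29, 2.11-fold), with an unadjusted p of 0.00149. Its adjusted p was 0.9998, in a comparison in which no feature passed (0%). At d 135 no feature passed either (0%), and IGFBP4 read -0.43 (SE 0.29). The PH over WH values of DLK1 were -0.56 at d 135 and -0.55 at d 195, each with an SE of 0.75, which is larger than the value.

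The probes of one gene did not always read alike. For DLK1, probe 1 read 0.36, 0.24 and -5.70 on the PH arrays of birth over d 195 and -4.52, 0.70 and -1.52 on the WH arrays. Probe 2 read -2.11, -4.78 and -4.66 in PH and -4.12, -3.71 and -2.81 in WH. Probe 2 was therefore lower at birth on all 6 arrays by at least 2 log2 units, and probe 1 on 3 of the 6. The duplicate spots of probe 1 differed by a median of 0.31 and by up to 2.81, against 0.10 for probe 2 and 0.08 over all 1994 probes of named genes, and both spots of probe 1 had values on only 18 of the 25 fetal arrays. Probe 1 alone gave a fall of 1.74 (SE 0.70, adjusted p = 0.0419) and probe 2 alone a fall of 3.70 (SE 0.26, adjusted p = 8.23e-10). Read by probe 2 alone, DLK1 also rose from d 60 to d 135 (0.75, SE 0.26, adjusted p = 0.0366), whereas probe 1 gave -0.38 (SE 0.78). From d 60 to birth probe 2 fell by 2.94 (adjusted p = 1.32e-05) and probe 1 gave -1.997 without passing (adjusted p = 0.188).

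For IGFBP5, 7 of the 8 probes fell before birth, by 0.96 to 2.22, and the same 7 fell from d 60 to birth, by 1.70 to 3.09. Probe 1 went the other way. Its birth over d 195 values were 0.60, 0.05 and -0.26 in PH and 0.96, 0.78 and -0.38 in WH, with a mean of 0.29 that did not pass (SE 0.16, adjusted p = 0.125). In WH alone this probe rose by 0.56 (adjusted p = 0.0343). Without it the fall of IGFBP5 before birth was 1.62 (adjusted p = 9.34e-08), so the gene mean given above is drawn towards 0 by a probe unlike the rest. Whether probe 1 reads the same transcript as the other 7 was not tested. IGFBP4 rests on 1 probe and has no such comparison.

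**Figure D3:**
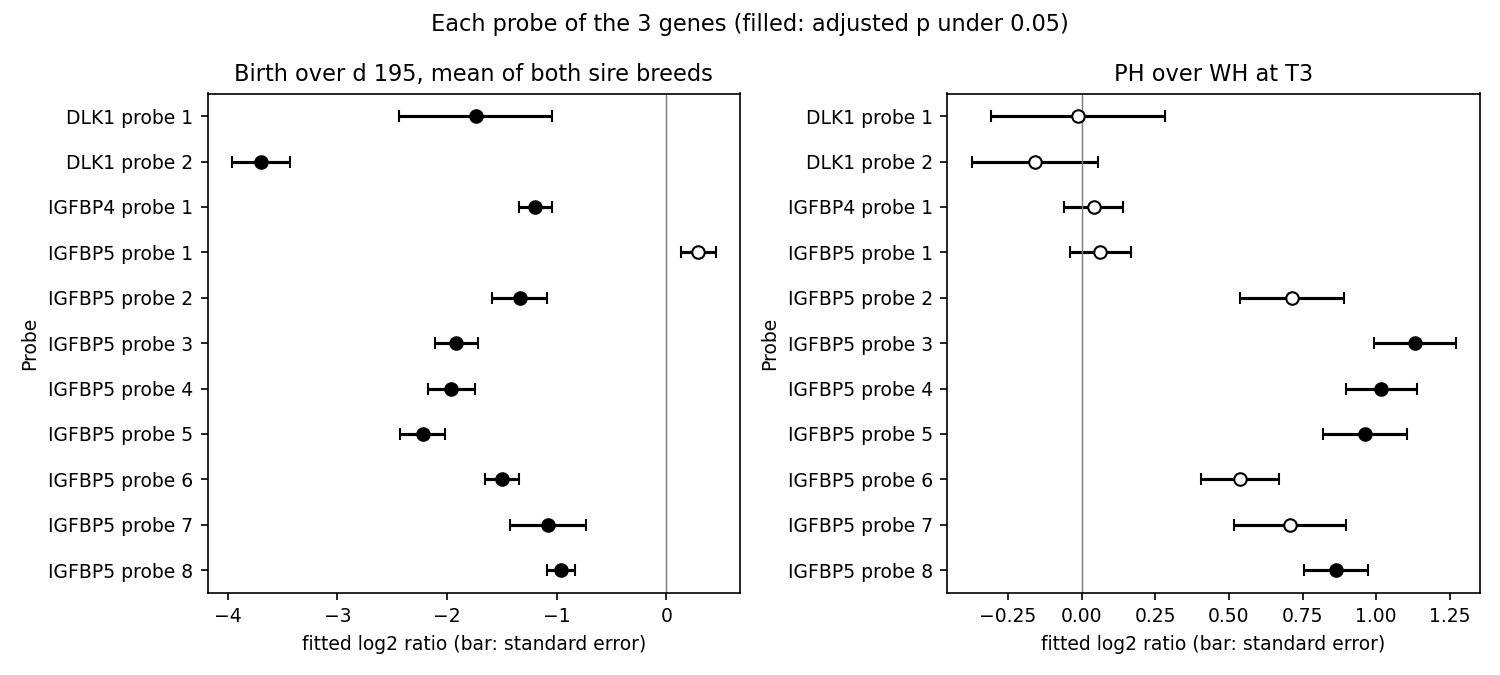
Fitted log2 ratio (x axis) of birth over d 195 in the mean of both sire breeds and of PH over WH at T3, for each cDNA probe of DLK1, IGFBP4 and IGFBP5 (y axis), with bars for the standard error and filled points for an adjusted p under 0.05. Before birth the DLK1 probes stand at -1.74 and -3.70, and probe 1 of IGFBP5, at 0.29 before birth and 0.06 at T3, stands apart from the other 7 probes in both panels.

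At T1 to T3 the gene that differed between the crosses was IGFBP5. At T3 the PH over WH values were 0.54, 0.86, 0.83 and 0.80, against -0.24, -0.22, 0.13 and 0.30 at T1 and 0.15, 0.04, 0.56 and 0.42 at T2. All 4 arrays of T3 and all 4 of T2 were above 0, those of T1 lay on both sides, and the T3 values overlapped the highest of T2 only at 0.54. At T1 and T2 arrays 1 and 2 both read lower than arrays 3 and 4. The fitted difference was 0.01 at T1 (SE 0.11, adjusted p = 0.976), 0.28 at T2 (SE 0.10, adjusted p = 0.186) and 0.75 at T3 (SE 0.11, 1.68-fold higher in PH, adjusted p = 0.0122). Only 0.307% of features passed as higher in PH at T3, and IGFBP5 ranked 4th from the highest of 973 named genes.

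The size of the T3 difference was steadier than its call. Leaving out T3 array 3 alone kept the value at 0.72 but gave an adjusted p of 0.117, fitting only the 12 arrays of PH against WH gave 0.76 with an adjusted p of 0.122, and treating arrays 1 with 2 and 3 with 4 as blocks gave 0.74 with an adjusted p of 0.154. All 8 probes were positive, from 0.06 for probe 1 to 1.13 for probe 3, and probes 3, 4, 5 and 8 passed on their own. The labels do not say whether arrays 1 and 2, or 3 and 4, are dye swaps of the same RNA, in which case each time would hold 2 comparisons and not 4. With these pairs as blocks the consensus correlation over features was 0.703. The main fit takes the 4 arrays of a time as independent, so its SEs and adjusted p values at T1 to T3 may be too small.

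Over time the change of IGFBP5 passed in PH alone. The PH arrays of T2 over T1 read 0.53 and 0.08 and those of T3 over T2 read 0.51 and 0.45, all above 0. The WH arrays read 0.33 and -0.12, then -0.18 and 0.25. Fitted from T1 to T3, IGFBP5 was 0.84 higher in PH (SE 0.19, adjusted p = 0.0460) and 0.10 higher in WH (adjusted p = 0.999), in comparisons in which 0.278% and 0.029% of features passed as higher. The difference between the breeds in this change was 0.74 (SE 0.16, adjusted p = 0.117) and did not pass, as was the case for all but 0.116% of features. The PH rise kept its call in only 11 of 36 other settings, with values of 0.75 to 0.95 when single arrays were left out.

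For IGFBP4 the steps that passed were those of WH. There it read 0.59 and 0.38 at T2 over T1 and -0.49 and -0.62 at T3 over T2, so that both arrays rose and then both fell. The fitted changes were 0.57 (SE 0.12, adjusted p = 0.0186) and -0.42 (SE 0.12, adjusted p = 0.0403), with 1.97% of features passing as higher in the first step and 3.64% as lower in the second. The PH arrays read 0.11 and 0.35, then 0.17 and -0.38, and neither step passed. The breed difference in the rise was -0.43 (SE 0.12, adjusted p = 0.113), in a test that 1.13% of features passed. The call of the fall held in 19 of 35 other settings. The rise was lost without array 1 of the WH link between T1 and T2 (0.56, adjusted p = 0.181) and without array 2 of the same PH link (0.52, adjusted p = 0.0568).

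PH over WH values of IGFBP4 were 0.42, 0.31, 0.28 and 0.30 at T1, then -0.34, -0.26, 0.12 and 0.01 at T2 and 0.04, -0.07, 0.11 and -0.13 at T3. All 4 T1 arrays were above 0 and above every array of T2 and T3. The fitted difference at T1 was 0.29 (SE 0.10) and did not pass (adjusted p = 0.169), where 0.753% of features did.

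DLK1 had no change past the threshold at T1 to T3. At T1 all 4 PH over WH arrays lay below 0, at -0.80, -0.60, -0.67 and -0.60, for a fitted -0.67 (SE 0.21) with an unadjusted p of 0.00552 and an adjusted p of 0.140, the 16th lowest of 973 named genes. At T2 the arrays read -0.42, 0.28, -0.61 and -0.71. At T3 they split by array number, with 0.57 and 0.46 on arrays 1 and 2 and -0.91 and -0.74 on arrays 3 and 4, and both probes gave this split. The T3 mean of -0.09 therefore describes none of the arrays. In WH, DLK1 read -0.90 and -0.11 at T2 over T1 and -1.12 and -0.38 at T3 over T2, all below 0, for a fitted T3 over T1 of -0.87 that did not pass (adjusted p = 0.503). The PH arrays read -0.22 and 0.20, then 0.31 and -0.09, on both sides of 0.

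**Figure D4:**
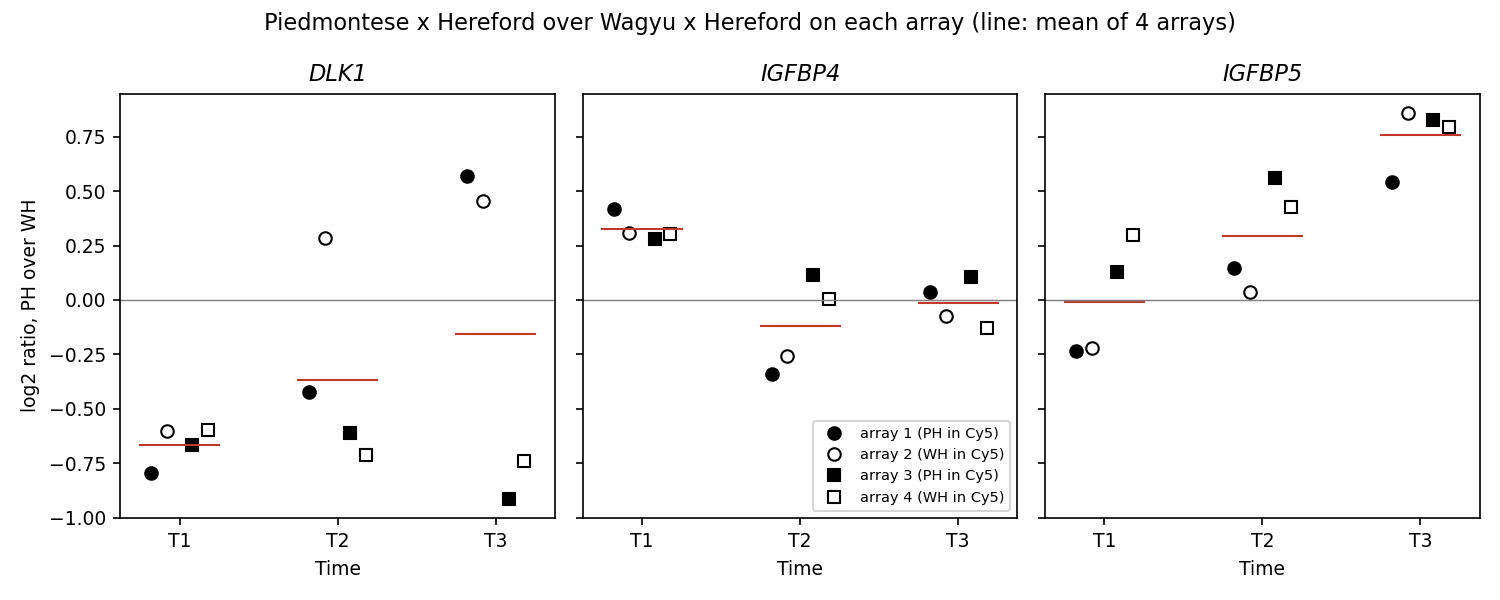
Log2 ratio of PH over WH on each array (y axis) at T1, T2 and T3 (x axis) for DLK1, IGFBP4 and IGFBP5, with a marker for each array number, filled where PH was in Cy5, and red lines at the mean of the 4 arrays. IGFBP5 lies between 0.54 and 0.86 at T3, DLK1 lies between -0.60 and -0.80 at T1 and splits into 2 pairs at T3, and IGFBP4 is above 0 on all 4 arrays only at T1.

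No array joined the fetal loop to the T1 to T3 loop, so levels at birth cannot be set against levels at T1. Within the later loop the fitted order of IGFBP5 ran from PH at T3 (0.62) and PH at T2 (0.12) down to PH and WH at T1 (-0.22 and -0.23). DLK1 ran from WH at T1 (0.61) and WH at T2 (0.24) down to PH at T3 (-0.34). IGFBP4 ran from WH at T2 (0.30) to WH at T1 (-0.27). No neighbours in any of these orders differed at the threshold. On 1 array that set PH muscle of T1 against itself, DLK1 read -0.13, IGFBP4 0.25 and IGFBP5 -0.00, where the SD over features was 0.42.

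Of the wider IGF system, 11 of 32 listed genes were on the array under their symbols. Between d 195 and birth 8 of the 11 fell and none rose, with a median of -0.59 against 0.00 over all features and -0.11 over named genes, in the step in which 25.8% of features passed as lower. With arrays scaled to the same spread 5 of the 11 passed as lower. The fetal growth factor IGF2 fell by 0.76 (adjusted p = 7.71e-05) and IGF1 by 0.59 (adjusted p = 0.0193). IGFBP6, which prefers IGF2, fell by 1.94 (adjusted p = 4.26e-08), HTRA1, a secreted protease known to cleave IGFBP5, by 1.54 (adjusted p = 8.19e-08). The receptor adaptor GRB10 fell by 0.47 and IGFALS, which stabilises circulating IGF complexes, by 0.35, while the kinase AKT1 read -0.22 and did not pass. IGFBP2 and IGFBP3 read -0.07 and 0.06 and did not pass either. They had fallen earlier, by 1.34 and 1.18 from d 60 to d 135, an interval in which IGFALS fell by 0.38 and IGFBP6 rose by 0.61 and GRB10 by 0.67. From d 60 to birth 8 of the 11 fell, with a median of -1.37, in a comparison in which 25.6% of features passed as lower. Between fetal stages, then, the binding proteins passed as lower at different steps, IGFBP2 and IGFBP3 in the first, IGFBP6 in the last, and IGFBP4 and IGFBP5 in both. These differences between genes were not tested.

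At T3 IGFBP5 and IGFBP6 stood on opposite sides, with IGFBP6 lower in PH by 0.45 (adjusted p = 0.0474) where IGFBP5 was higher. Both calls take the 4 arrays of a time as independent, and that of IGFBP5 was lost with dye pairs as blocks (adjusted p = 0.154). The effect of such blocks on IGFBP6 was not examined. IGFBP6 was already lower in PH at T2, by 0.62 (adjusted p = 0.000403). These were the only 2 of the 11 IGF system genes that passed between the crosses at T2 or T3, beside 3.28% of all features at T2 and 0.539% at T3. Between T2 and T3, IGFBP6 fell by 0.77, HTRA1 by 0.75 and GRB10 by 0.58 in the mean of both breeds, a step in which 3.98% of features passed as lower.

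**Figure D5:**
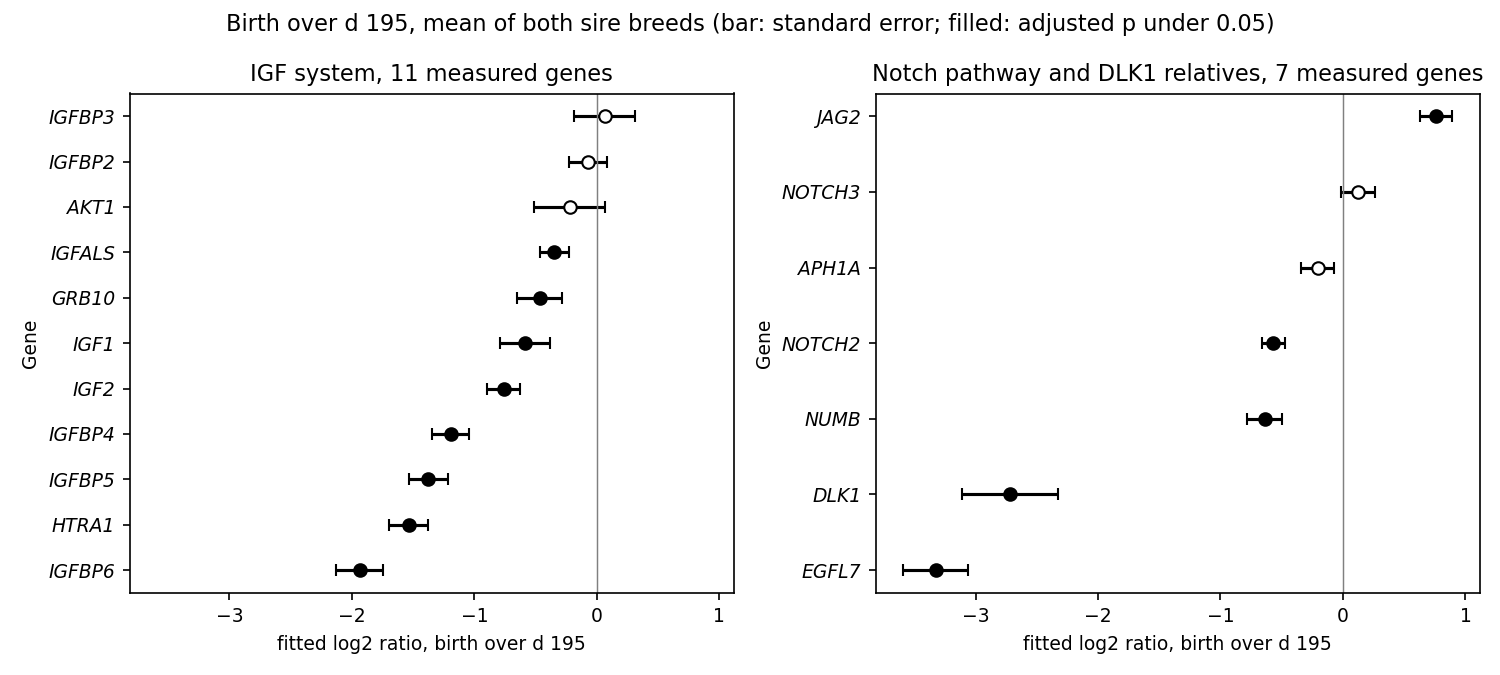
Fitted log2 ratio of birth over d 195 in the mean of both sire breeds (x axis) for the 11 measured genes of the IGF system and the 7 of the Notch list (y axis), with bars for the standard error and filled points for an adjusted p under 0.05. IGF system genes run from 0.06 for IGFBP3 down to -1.94 for IGFBP6, and the Notch list from 0.76 for JAG2 down to -2.72 for DLK1 and -3.32 for EGFL7.

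Of the Notch pathway and EGF-repeat relatives of DLK1, 7 of 26 listed genes were measured. Before birth 4 fell and 1 rose, with a median of -0.57, beside the 25.8% of all features that passed as lower and 52.5% in either direction. EGFL7, a secreted EGF-domain protein of blood vessels, fell by 3.32 (adjusted p = 3.48e-09) after a rise of 1.11 from d 60 to d 135, and the receptor NOTCH2 fell by 0.57 and its regulator NUMB by 0.64. The Notch ligand JAG2 rose by 0.76 (adjusted p = 6.80e-05), while NOTCH3 (0.12) and the gamma-secretase subunit APH1A (-0.21) did not pass. All 7 measured of 27 listed imprinted and growth-control genes fell before birth, with a median of -0.98, again beside 25.8% of features passing as lower. Besides DLK1, IGF2 and GRB10 these were GPC3, a glypican whose loss causes overgrowth, at -3.66 (adjusted p = 1.35e-13), the matrix proteoglycan DCN at -1.18, SGCE at -0.98 and GNAS at -0.52.

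The myoblast regulators included 7 of 23 listed genes. MYF5 fell by 0.94 before birth, MYOG by 1.28 and MEF2C by 0.94, factors of muscle cell commitment and differentiation, while MYF6, the factor of mature fibres, rose by 1.24. From d 60 to birth the muscle intermediate filament gene DES also rose, by 1.47, and ID1, an inhibitor of differentiation factors, fell by 1.25. MYF5 fell again slightly between T2 and T3, by 0.27. Of 18 measured adipogenic genes, 4 fell and 3 rose between d 195 and birth, with a median of -0.11. Over all features 25.8% passed as lower in this step and 26.7% as higher. The transcription factor CEBPA fell by 0.70 and the lipogenic enzyme ACACA by 1.30, whereas CEBPD rose by 1.02, the hormone-sensitive lipase LIPE by 0.76 and lipoprotein lipase LPL by 0.79. The listed adipogenic genes moved in both directions, as features did over the whole array, and any link to DLK1 was not tested. Other falls were those of the fatty acid binding protein FABP5 (-0.58) and the desaturase SCD (-0.61) before birth, and of the lipogenic factor SREBF1 (-1.01) and the lipid droplet protein PLIN1 (-0.45) from d 60 to birth, an interval in which the fatty acid transporter CD36 rose by 0.77.

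The fat cell marker FABP4 rose by 0.74 from d 60 to d 135, fell by 0.86 to d 195, rose by 0.56 from T1 to T2 and fell by 0.52 to T3. SCD likewise rose by 0.86 and fell by 1.15 between the later times. These values are means of both breeds, whereas IGFBP4 had this order of passing rise and fall in WH alone. IGFBP6 had the order too, in the mean of both breeds, with 0.48 from T1 to T2 and -0.77 from T2 to T3. The triglyceride synthesis enzyme DGAT2 went the other way, with a fall of 1.54 and a rise of 1.30, and LEP and PLIN2 rose by 0.69 and 0.54 from T2 to T3. KLF6 fell by 1.10 from d 135 to d 195, and GPC3 by 0.76 from T1 to T2. The mean of the DLK1 probes did not pass at any of these steps.

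Markers of some cell types changed over the same steps. Over all features 25.8% passed as lower and 26.7% as higher before birth, and 25.6% and 22.6% from d 60 to birth. Of 15 measured connective tissue markers 14 fell before birth (median -1.41) and all 15 fell from d 60 to birth (median -2.69), while 14 of 19 muscle fibre genes (of 27 listed) rose before birth (median 0.86) and all 19 rose from d 60 to birth (median 2.33). These are ratios, which show no level at any stage. Among 4 endothelial genes 2 fell before birth and among 5 immune genes 2 fell and 1 rose, too few genes to set apart from the shares of all features. None of the listed blood, epidermis, cartilage or nerve markers was on the array under its symbol, which leaves skin at d 60 without a check. The part of any of these cell types in the changes of DLK1, IGFBP4 and IGFBP5 was not tested. In PH over WH at T3 none of the 15 connective tissue markers passed as higher, as was the case for nearly all features. Only the fibrillar collagen COL3A1 passed as lower (-0.54, adjusted p = 0.0390), with a list median of -0.22. The part of connective tissue in the T3 difference of IGFBP5 was not tested. Over all features 0.307% passed as higher in PH at T3 and 0.232% as lower.

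Over the 25 fetal arrays the genes whose array values followed IGFBP5 most closely, among 974 other named genes, were COL3A1 (Pearson r = 0.93), SPARC (0.93), COL1A2 (0.93), LOC784131 (0.93) and FN1 (0.91). Over the 20 later arrays the same pairs had r of -0.60, -0.43, -0.51, -0.26 and -0.54. The sign thus differed between the sets in all 5. DLK1 was nearest to EGFL7 (0.87), TNXB (0.85), ANGPTL2 (0.84), IGFBP6 (0.84) and CEBPA (0.83) on the fetal arrays, of which EGFL7 (0.67) and CEBPA (0.56) had the highest r on the later ones. IGFBP4 was nearest to ACTB (0.84), CTSB (0.83), ACACA (0.82), HYAL2 (0.81) and TIMP2 (0.81), with later r from -0.45 to 0.48. Among the 3 genes the fetal r was 0.54 for DLK1 with IGFBP4, 0.71 for DLK1 with IGFBP5 and 0.77 for IGFBP4 with IGFBP5, and the later r was -0.15, -0.34 and 0.00. These correlations are descriptions, since the arrays of each set share RNA groups.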

How the data were processed

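Muscle RNA was hybridized in pairs to a bovine cDNA array with probes printed in duplicate. The deposited table holds the authors' log2 ratios of background-corrected Cy5 and Cy3 intensities, read with GenePix, with an upper limit of 16.61. Its normalization is not given in the sources used here. Another 24 columns of the table were not used. Gene names were those of the platform annotation, for elements with 1 symbol, and the Entrez identifiers of the 3 members were matched to RefSeq (assembly ARS-UCD2.0). The members and gene lists were chosen with earlier results of these data known.

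Ratios at the limit were left out, every array was centred on its median (-0.482 to 0.465 in the fetal set, -0.316 to 0.141 at T1 to T3), and elements of one named gene were averaged. Features with values on a share of at least 0.8 of the arrays were kept, 16660 fetal and 17253 later ones. Each loop was fitted over all its arrays with group and dye terms in limma (version 3.58.1, R 4.3.3), moderated by empirical Bayes, with Benjamini-Hochberg adjustment over all features and 17 and 14 residual degrees of freedom. Scripts were tested on simulated data. The number of arrays limits the precision.

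Named genes were the 3 members, the listed genes of the same pathways and, per member, the 5 with the highest correlation over the fetal arrays. Alternatives varied centring, scaling, limit ratios, the averaging of elements, the dye term, moderation, array weights and the arrays used. Leaving out single arrays, single probes and dye pairs as blocks were added after seeing the data.

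Array numbers are not tied to animals. Residuals of fetal arrays of linked steps with the same number correlated at a median r of -0.18 (24 pairs) and those with different numbers at 0.07 (54 pairs). Neighbouring links held the group they share in opposite dyes, so a shared animal could lower this correlation. Whether the numbers pair samples is thus not settled, and the main fit used no pairing. At T1 to T3, arrays 1 with 2 and 3 with 4 of a time correlated at a median of 0.22 (6 pairs) and other pairs at -0.61 (12 pairs).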

Additional observations from a re-analysis of the deposited data

Results flagged for a closer look

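The PH over WH ratio of IGFBP5 pointed in opposite directions at birth and at the later times. At birth it was below 0 on all 3 arrays, with an array mean of -0.50, and it was above 0 on all 4 arrays of T2 (mean 0.29) and on all 4 of T3 (mean 0.76). The difference between these times was not tested. The values come from separate fits of the fetal and the T1 to T3 arrays. At birth 1 of the 3 values was -0.01 and another, -1.30, made up most of the mean.

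None of the 12 groups of 4 arrays held a value of a member far from the other 3, and none of the 24 tests of a breed difference in a member's change over time passed. Smaller groups of arrays, which include most fetal links, were not checked for such values.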

How the results depend on the processing

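The fall of DLK1, IGFBP4 and IGFBP5 before birth in the mean of both breeds kept its direction and call in 43 of 44, 42 of 42 and 42 of 43 other settings, the exceptions being single array elements. Values that passed neither in the text nor in the other setting were counted as unchanged whatever their sign. With arrays scaled to the same spread, DLK1 from d 60 to birth became -1.23 and IGFBP4 from d 135 to d 195 passed at -0.35. With ratios at the limit kept, DLK1 from d 60 to birth was -1.24 and IGFBP5 from d 60 to d 135 was -0.52, neither passing. The cause was not tested.

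Single elements gave the widest range. The highest of DLK1 gave -1.63 before birth and -1.66 from d 60 to birth, without passing. The highest of IGFBP5, a spot of probe 1, reversed the sign to 0.16 (d 60 to d 135; 0.23 in PH), 0.29 (d 195 to birth; 0.039 in PH and 0.56 in WH) and 0.52 (d 60 to birth; 0.45 in PH and 0.61 in WH), and the lowest gave -0.80 from d 60 to d 135, which did not pass. At the later times the highest IGFBP5 element passed for T2 over T1 (0.52), for PH over WH at T2 (0.49) and for the breed difference in T3 over T1 (1.36). The lowest gave -0.0058 for PH over WH at T3 and -0.32 for PH T3 over T1. Probe 1 of DLK1 alone gave -1.997 from d 60 to birth and probe 2 alone 0.75 from d 60 to d 135.

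Leaving out array numbers or single arrays gave -0.69 to -0.42 for IGFBP4 and -0.62 to -0.41 for IGFBP5 from d 60 to d 135, -0.60 to -0.18 for IGFBP4 from d 135 to d 195, 0.29 to 0.43 for its T2 over T1, -0.50 to -0.16 for its T3 over T2, and 0.67 to 0.84 for IGFBP5 between the crosses at T3. That last call was lost without any one of the 4 array numbers (adjusted p 0.0637 to 0.192), with only the 12 arrays of PH against WH (0.76) and with dye pairs as blocks (0.74). Without d 60 arrays and with the dye term only the breed means could be fitted. The array number as a random replicate block changed no call of the 3 genes, giving -2.72 (adjusted p = 7.65e-06) for DLK1 before birth and 0.75 (adjusted p = 0.0121) for IGFBP5 at T3. In the fetal loop this block, with the same correlation for all arrays of a number, does not test pairing across opposite dyes.

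The share of all features passing moved further. It was 25.7% with scaled arrays and 8.6% without array number 2 for d 195 over d 135, 17.8% without number 2 for d 135 over d 60, 8.33% without number 1 for the breeds at birth, 0% to 21.8% for the breed difference from d 60 to birth, and 0.0116% to 0.0464% for the crosses at T3 without any one number. The number of IGF system genes that fell before birth was 5 instead of 8 with scaled arrays.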
